A study of Mus musculus with 2 samples.

Results

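The cytochrome P450 genes of mouse pancreatic islets were described together with Por, the gene of the reductase that supplies most of these enzymes with electrons. Members were all genes whose symbol begins with Cyp, a number, a letter and a number, plus Por, which gave 115 of the 38924 genes listed. They comprised Por, 98 protein coding P450 genes, 15 pseudogenes and 1 antisense gene, Cyp4x1os. The rule uses symbols and no measured value.

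Islets, the hormone-secreting part of the pancreas, came from male mice aged 10 weeks of C57BL/6J (B6), the laboratory strain behind the mouse reference genome, or of CAST/EiJ (CAST), an inbred strain of the wild subspecies castaneus. The mice ate standard chow, no treatment is named in the labels, and the islets were prepared in buffer with 16.7 mM glucose. Islets of 2 mice per strain were pooled, and 250 islets of each pool gave 1 RNA library per strain. With 1 library per strain there is no replicate error, no difference between the strains was tested, and the 95% intervals given below are exact Clopper-Pearson intervals that cover counting error only. In bulk RNA, fewer cells of a type and less RNA per cell cannot be told apart.

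Cytochromes P450 are heme enzymes that insert an oxygen atom into lipids, steroids, vitamins and foreign compounds. Those in the endoplasmic reticulum take electrons from NADPH through Por, and those in mitochondria through ferredoxin and ferredoxin reductase. They are best known from the liver, where many Cyp2 and Cyp3 enzymes clear drugs, and from steroid-producing glands, and a smaller set makes or removes signalling molecules such as retinoic acid, vitamin D, oxysterols and oxidised fatty acids in many tissues.

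The libraries held 76600903 (B6) and 104324631 (CAST) counts, where a count is the expected number of reads of a gene. Endocrine markers (Ins1, Ins2, Gcg, Sst, Ppy and Iapp) took 24.8% and 28.3% of them. The 8 acinar markers summed to 5307 transcripts per 1000000 (TPM) in B6 and 16014 in CAST, and the 7 markers of stellate cells and fibroblasts to 22.8 and 47.5 TPM. Ratios below are those of CAST over B6 after scaling with edgeR's TMM factors, with 0.5 added to each scaled count. Their median over the 14768 genes with 100 or more counts was 0.02 on the log2 scale, and by TPM it was -0.33, so a direction by TPM is to be read against that shift.

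Most P450 genes were hardly or not read in islets. Of the 98 protein coding P450 genes 22 (22.4%) had 100 or more counts over both libraries, against 63.7% of all protein coding genes, and 41 (41.8%) had 0 counts in both, against 18.7%. A count of 0 allows up to 3 counts per library. At a TPM of 1 or more 15 P450 genes were detected in B6 (15.3% of the protein coding ones, where 56.2% of all protein coding genes and 32.9% of all genes were) and 14 in CAST (14.3%, against 55% and 32.2%), of which 13 were shared. Cyp2j6 and Cyp4x1 passed that level only in B6 and Cyp26b1 only in CAST. Among all members including Por, 23 had 100 or more counts, 7 had 20 to 99, 31 had 1 to 17 and 54 had none.

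Subfamilies best known from the liver were hardly read. The 16 members of the Cyp2c subfamily, liver enzymes of drugs and arachidonic acid, had 3 counts in B6 and 8 in CAST in all, and 11 of them had none in either. The 4 Cyp2a genes had 0 and 1 counts and the 5 Cyp2b genes 0 and 3. Cyp2e1, the ethanol-oxidising enzyme, had 7 and 5 counts. Cyp1a2, a liver enzyme that clears caffeine, had 0 and 2 counts, and Cyp7a1, the rate-limiting enzyme of bile acid synthesis, had 0 in both. The 11 members of the Cyp4a subfamily, which oxidise the end carbon of fatty acids, had 15 and 6 counts, of which Cyp4a10 had 8 and 4. Of the 6 liver markers, Alb had 65 and 100 counts, Apoa1 14 and 16, Apob 14 and 134, Serpina1a 33 and 0, and Cps1 0 and 2, while Tat had 3423 and 2419 (23.1 and 10.5 TPM).

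A few genes carried most of the transcripts of the P450 members. In TPM, which is per transcript length, all P450 members together summed to 105.1 in B6 and 70.2 in CAST. This gap is to be read against the general TPM shift of -0.33 given above. By scaled counts the same members, with 15360 and 16696 counts, differed less (log2 -0.17, -0.20 to -0.14). The 5 most abundant held 68.1% of the summed TPM in B6 and 61.6% in CAST. In B6 they were Cyp20a1, an enzyme with no established substrate (20.2 TPM), Cyp4v3, a fatty acid hydroxylase (17.4), Cyp4f13 (15.4), Cyp4f39 (9.52) and Cyp4f16 (9.10), all 3 of the Cyp4f subfamily of fatty acid and leukotriene hydroxylases. In CAST they were Cyp4f13 (13.4), Cyp4v3 (10.7), Cyp20a1 (9.19), Cyp2d22 (5.87) and Cyp2u1 (4.15). In both libraries Por stood above every P450 gene, with 83.4 TPM in B6 and 69.2 in CAST. These levels were 0.793 and 0.985 times the summed TPM of the P450 members.

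**Figure D1:**
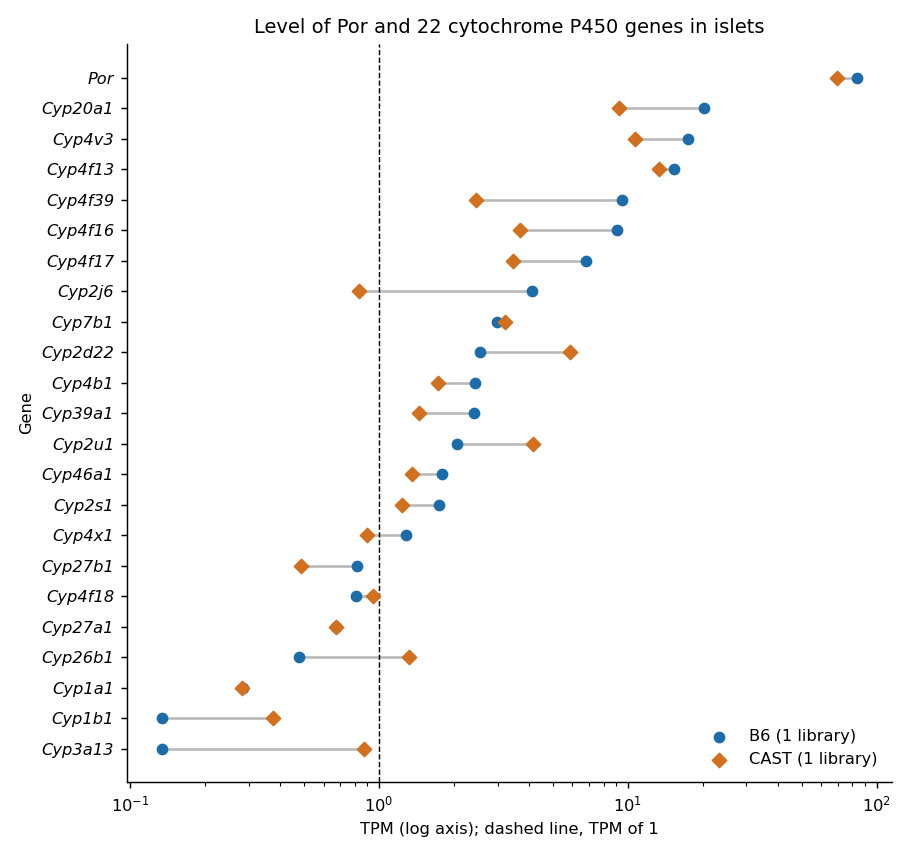
Level in TPM (log axis) of Por and the 22 P450 genes with 100 or more counts, with 1 point per library and genes ordered by B6. Por lies highest at 83.4 and 69.2 TPM, and 13 of the P450 genes lie at or above the dashed line of 1 TPM in both libraries.

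Of the 23 members with 100 or more counts, 5 stood 2-fold or more higher in CAST (21.7%, where 7.18% of all genes did) and 2 stood that far higher in B6 (8.70%, where 5.99% of all genes did). Counted in either direction this was 30.4% of members and 13.2% of all genes. Higher in CAST were Cyp3a13, Cyp26b1, Cyp1b1, Cyp2d22 and Cyp2u1, and higher in B6 were Cyp2j6 and Cyp4f39. The counting intervals of all 7 lay beyond 2-fold. The median log2 ratio of the 23 was -0.05, with 12 below 0 (48.3% of all genes were) and 11 above. For Cyp1a1, Cyp27a1, Cyp27b1, Cyp2s1, Cyp46a1, Cyp4b1 and Cyp4x1 the interval included equality. When TPM with 1 added was compared instead, 0 members passed 2-fold on the CAST side (3.14% of all genes did) and 4 on the B6 side (4.99% of all genes). Without the added 1 these counts were 5 (4.72% of all genes) and 4 (11.2% of all genes), with Cyp4f16 (-1.30) and Cyp20a1 (-1.14) past 2-fold on the B6 side. The median of all genes by TPM was -0.33, and by scaled counts Cyp4f16 was at -0.83 and Cyp20a1 at -0.72.

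**Figure D2:**
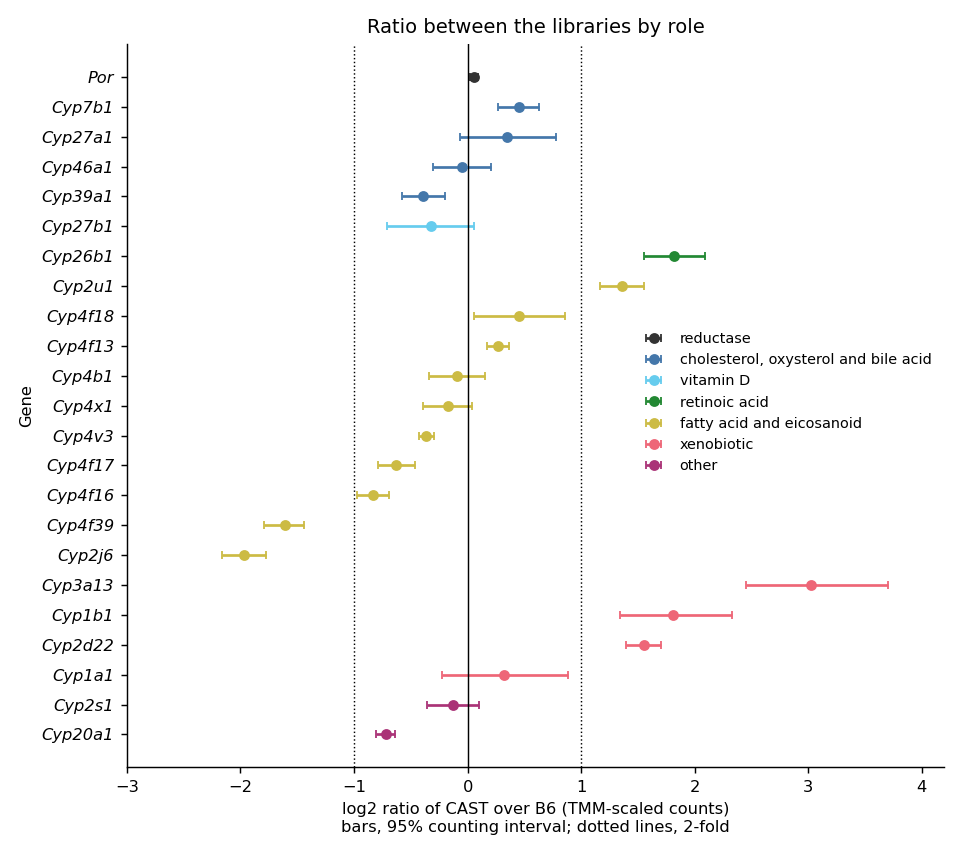
Log2 ratio of CAST over B6 of the 23 members with 100 or more counts, grouped and coloured by role; bars are 95% counting intervals and dotted lines mark 2-fold. Of the 7 genes beyond the dotted lines, 5 lie on the CAST side, led by Cyp3a13 at 3.02, and Cyp2j6 at -1.97 and Cyp4f39 at -1.61 lie on the B6 side.

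Por and the other electron donors stayed within 2-fold, as most genes did (13.2% of all genes with 100 or more counts were 2-fold or more apart). Por (ENSMUSG00000005514, chromosome 5, 135670033 to 135735326, GRCm38) was read with 13223 (B6) and 16817 (CAST) counts, a log2 ratio of 0.06 (0.02 to 0.09). The ratio was -0.10 with total-count scaling and -0.27 by TPM, where the medians of all genes were -0.14 and -0.33. The list of 9 further donors and cofactors, outside the naming rule, had a median of 0.20, with each gene within 2-fold. Fdx1, the ferredoxin of mitochondrial P450s, had 1063 and 1496 counts (0.20), and its reductase gene Fdxr 965 and 1220 (0.05). Cyb5r1, a cytochrome b5 reductase gene, was lowest at -0.83 and Cyb5b, the mitochondrial cytochrome b5, highest at 0.50. The 12 genes of heme synthesis and breakdown were also all within 2-fold (median 0.20). Alas1, the rate-limiting enzyme of heme synthesis, had 2276 and 2464 counts (-0.17), Uros was lowest (-0.72) and Blvra, a biliverdin reductase gene, highest (0.74).

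Genes grouped as xenobiotic enzymes were low in both libraries and those read were mostly higher in CAST. Of 33 members of these subfamilies 4 had 100 or more counts (63.7% of all protein coding genes did). Of these 4, 3 were at least 2-fold higher in CAST (7.18% of all genes were). Of the 33, 17 had none (18.7% of all protein coding genes had none). The 33 include the pseudogenes Cyp2d37-ps and Cyp2d41-ps, and the latter is among the 17. Summed, the 33 had 578 (B6) and 2165 (CAST) counts. Cyp3a13 (chromosome 5, 137892932 to 137921619), a Cyp3a enzyme found outside the liver as well, had 25 and 252 counts. It was 8.12-fold higher in CAST (log2 3.02, 2.45 to 3.70), at levels of 0.134 and 0.872 TPM that lie below the detection level of 1. Cyp3a11, the main Cyp3a enzyme of mouse liver, was not read in B6 (0 counts) and had 28 counts in CAST. Against 3 counts as the floor of the B6 library its CAST level was 7.64-fold higher, a value that leaves out the counting error of the 28. The counting interval of its log2 ratio began at 2.54.

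Cyp2d22 (chromosome 15, 82370527 to 82380260) was the most abundant gene of the xenobiotic group. Its counts were 444 (B6) and 1589 (CAST), with levels of 2.55 and 5.87 TPM, and was 2.93-fold higher in CAST (log2 1.55, 1.40 to 1.71). The other 9 members of the Cyp2d subfamily had at most 6 counts each over both libraries, so the subfamily sum gave nearly the same ratio (1.53). Cyp1b1, which oxidises steroids, retinoids and aromatic hydrocarbons, had 44 and 190 counts (3.51-fold higher in CAST, log2 1.81, 1.34 to 2.33). Cyp1a1, its relative and a known target of the aryl hydrocarbon receptor, had 47 and 72 counts (log2 0.32, -0.22 to 0.89). By TPM its ratio was -0.02, where the median of all genes was -0.33.

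The retinoic acid hydroxylase Cyp26b1 (chromosome 6, 84571414 to 84593908) had the second highest ratio of the members with 100 or more counts, close to that of Cyp1b1. Its counts were 143 (B6) and 617 (CAST), 3.52-fold higher (log2 1.82, 1.56 to 2.09). Its relatives Cyp26a1 and Cyp26c1 had 3 and 0, and 3 and 4 counts. Markers of stellate cells and fibroblasts moved the same way as Cyp26b1 and Cyp1b1: all 7 had ratios above 0, 5 of them at least 2-fold, none was at 0 counts, and their summed level was 22.8 TPM in B6 and 47.5 in CAST. All 8 acinar markers and, of 6 duct markers, 3 (Krt19, Spp1 and Muc1) were beyond 2-fold on the CAST side. None of the 6 duct markers was at 0, and their summed level was 113.5 TPM in B6 and 95.4 in CAST. Krt7, the most abundant duct marker, had a ratio below 0 (log2 -0.46), with 92.0 TPM in B6 and 54.0 in CAST. The ratio of Sox9 was 0.48, and Cftr had 10 (B6) and 9 (CAST) counts. The 5 endothelial markers had ratios above 0, 1 of them (Vwf) beyond 2-fold, and summed to 149.4 and 155.0 TPM. The part of these cell types in the ratios of the xenobiotic and other P450 genes was not tested.

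Vitamin D and steroid genes were few. Cyp27b1, which makes active vitamin D, was read with 117 (B6) and 114 (CAST) counts (log2 -0.33, -0.71 to 0.06), and Cyp2r1, the 25-hydroxylase, 29 and 14 (2.47-fold higher in B6, log2 -1.31, -2.37 to -0.37). Cyp24a1, which breaks vitamin D down and is a textbook target of the vitamin D receptor, had 0 counts in both, while the receptor gene Vdr stood at 63.0 and 77.8 TPM. Of the 6 genes of steroid hormone synthesis none had 100 counts. Cyp17a1, the 17-hydroxylase, had 21 and 39 counts, and Cyp11a1, the side-chain cleavage enzyme that starts the pathway, 0 and 2. Cyp19a1, the aromatase gene, and the adrenal genes Cyp11b1 and Cyp11b2 had none. The adrenal markers Hsd3b1 and Mc2r had 0 counts in B6 and 0 and 1 in CAST, and Star 235 and 124.

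Genes of cholesterol and oxysterol turnover were among the more evenly read. Of 6 members 4 had 100 or more counts, where 63.7% of all protein coding genes did. Each of these 4 was within 2-fold (13.2% of all genes were not). All 6 summed to 1185 (B6) and 1514 (CAST) counts (log2 0.06, -0.05 to 0.18). Cyp7b1, an oxysterol hydroxylase, had 405 and 676 counts (0.45, 0.27 to 0.63). Cyp39a1, also an oxysterol hydroxylase, went the other way with 464 and 433 (-0.39, -0.58 to -0.20). Cyp46a1, which hydroxylates cholesterol in neurons, had 236 and 278 counts, and Cyp27a1, a mitochondrial sterol hydroxylase, 79 and 123. Cyp51, the sterol demethylase of cholesterol synthesis, which the naming rule leaves out, had 3194 and 4612 counts (12.9 and 12.0 TPM, log2 0.24). It is a P450 of the same level as the most abundant members. Ptgis, the prostacyclin synthase and also a P450, had 12 and 59 counts.

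Fatty acid and eicosanoid subfamilies held 66.4% of the summed TPM of the P450 members in B6 and 61.3% in CAST. Of their 57 members, of which 44 are protein coding, 10 had 100 or more counts (63.7% of all protein coding genes did). Of these 10, 2 were at least 2-fold higher in B6 (5.99% of all genes were) and 1 in CAST (7.18% of all genes). Cyp2j6 (chromosome 4, 96516138 to 96553661), an epoxygenase of the arachidonic acid family, was read with 941 (B6) and 294 (CAST) counts, at levels of 4.12 and 0.829 TPM. It was 3.91-fold higher in B6 (log2 -1.97, -2.16 to -1.78), the lowest ratio of the members with 100 or more counts. Cyp4f39 (chromosome 17, 32452723 to 32493320), known from the making of skin ceramides, had 936 and 374 counts and was 3.05-fold higher in B6 (log2 -1.61, -1.79 to -1.44). Cyp2u1 (chromosome 3, 131288441 to 131303227), a long-chain fatty acid hydroxylase, had 300 and 940 counts and was 2.56-fold higher in CAST (log2 1.36, 1.17 to 1.55).

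The other fatty acid enzymes stayed within 2-fold. Cyp4v3 was read with 4204 (B6) and 3996 (CAST) counts (log2 -0.36, -0.43 to -0.30). Cyp4b1 had 260 and 298 counts, Cyp4x1 343 and 371, and Cyp4f18, a leukotriene hydroxylase of leukocytes, 85 and 142. Outside the groups, Cyp20a1 (chromosome 1, 60343323 to 60388060) had 2646 and 1960 counts (log2 -0.72, -0.81 to -0.64), and Cyp2s1, an epithelial P450, 305 and 341 (-0.13).

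Receptors known to regulate P450 genes were mostly within 2-fold, 14 of the 15 with 100 or more counts, with a median of -0.06. Of all genes 13.2% were 2-fold or more apart. Nr1h3, an oxysterol receptor, was the exception with 665 counts in B6 and 304 in CAST (2.67-fold higher in B6). Ahr, the aryl hydrocarbon receptor, had 513 and 849 counts (log2 0.44) and its partner Arnt 4577 and 4501 (-0.31). Nr1i2, the receptor that induces Cyp3a genes in liver, had 47 and 12 counts. Whether any of these receptors had a part in the P450 ratios was not tested. Rarb, a retinoic acid receptor, had 47 and 101 counts (0.81), beside 143 and 617 for Cyp26b1.

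Position on the chromosomes went with how the genes were read. Members less than 1 Mb from the next were taken as one group, and 8 such groups held 3 or more members. Of the 87 members in these groups 10 (11.5%) had 100 or more counts, against 13 of the 28 (46.4%) that stand alone or as a pair. The antisense gene and all of the 15 pseudogenes but Cyp21a2-ps lie in these groups. None of them had 100 counts, which lowers the share in the groups. The Cyp2c group on chromosome 19 had none in 15 members, the Cyp3a group on chromosome 5 none in 8, and the Cyp2j group on chromosome 4 had 1 in 13. Cyp3a13 lies on chromosome 5 too but outside the Cyp3a group. Within the Cyp2j group Cyp2j6 had 941 and 294 counts, while the adjacent Cyp2j9 had 41 and 55 and Cyp2j8, on its other side, 1 and 0.

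The Cyp4f group on chromosome 17 was the only one of the 8 with more than 2 genes above 100 counts. Its 9 members span 513.0 kb. At one end Cyp4f39, Cyp4f17 and Cyp4f16 follow each other on the plus strand, with 936, 712 and 995 counts in B6 and 374, 563 and 683 in CAST. Their log2 ratios were -1.61, -0.63 and -0.83, so these 3 neighbours were each higher in B6. The next 4 genes, Cyp4f37, Cyp4f40, Cyp4f15 and Cyp4f14, had at most 12 counts in either library. Cyp4f13, on the minus strand, had 1431 and 2105 counts (log2 0.27, 0.17 to 0.37), higher in CAST by scaled counts. By TPM its ratio was -0.20, where the median of all genes was -0.33. The last member, the pseudogene Cyp4f41-ps, had 20 and 14 counts (log2 -0.78). Reads of Cyp4f16 could be shared with Cyp4f37, whose longest transcript is 96.1% identical over 1607 bases, but Cyp4f37 had only 0 and 4 counts, and adding them left the ratio of Cyp4f16 within its interval. Cyp4f16 and Cyp4f17 are 90.0% identical over 1466 bases. Cyp4b1 was the only other member of the 23 with a near-identical copy, and its copies, the pseudogenes Cyp4b1-ps1 and Cyp4b1-ps2, had 0 counts.

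**Figure D3:**
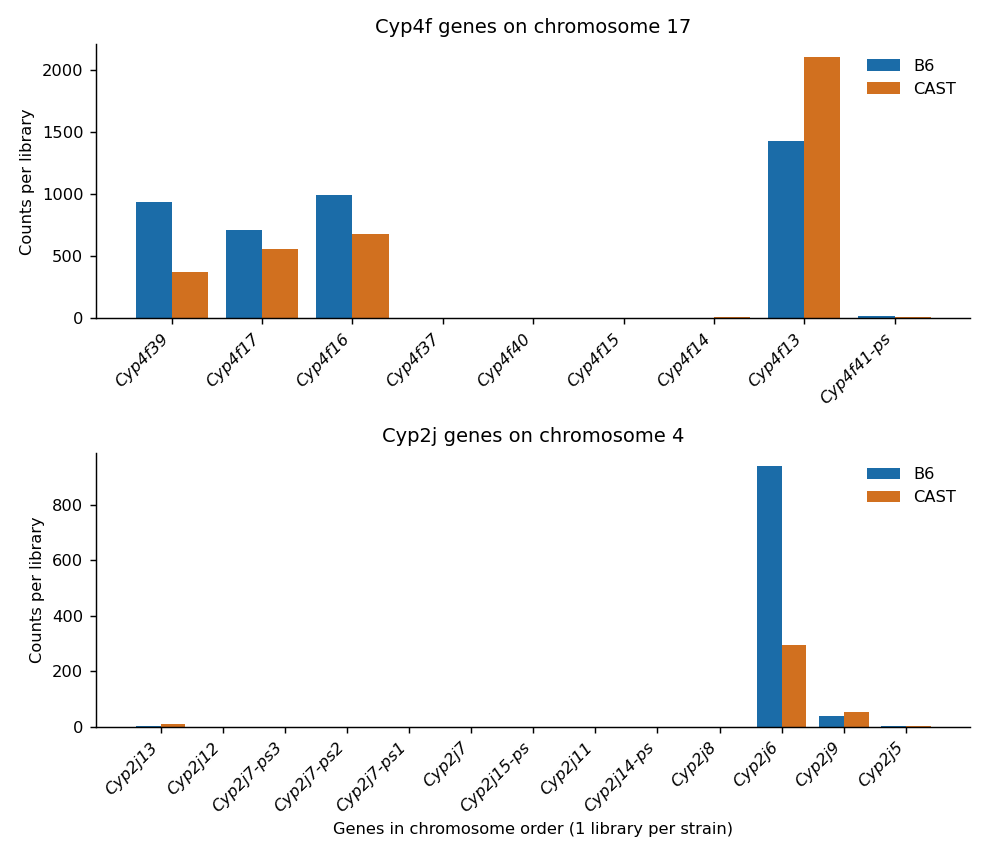
Counts per library of the Cyp4f genes on chromosome 17 and the Cyp2j genes on chromosome 4, in chromosome order, with bars for B6 and CAST (1 library each). In the upper panel Cyp4f39, Cyp4f17 and Cyp4f16 have taller B6 bars and Cyp4f13 a taller CAST bar (1431 and 2105 counts); in the lower panel Cyp2j6 stands far above the rest at 941 and 294 counts.

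Promoters differed between read and unread members in the density of CpG, the dinucleotide at which mammalian DNA is methylated and which clusters at the starts of widely expressed genes. RefSeq promoter windows (GRCm38.p6) were found for 17 of the 23 members with 100 or more counts and for 60 of the others. The 250 bases before the start held a median of 7 CpG in the 17, and of 2 in the 70 windows of the others, where all 32851 promoter windows had a median of 6. There were 10 or more CpG, a limit chosen after the values were seen, in 7 of the 17 (41.2%) and in 2 of the 70 windows (2.86%), against 37.8% of all. Those 2 belonged to Cyp26a1 and Cyp2r1. TATAAA, the TATA box, was present on either strand in 2 of the 17 (11.8%), in 28 of the 70 (40.0%) and in 12.4% of all windows. GCGTG, the core bound by the aryl hydrocarbon receptor with Arnt, which itself holds a CpG, was present on either strand in 8 of the 17 (47.1%), 8 of the 70 (11.4%) and 28.2% of all; Cyp1a1 and Cyp1b1 each had 1 match. The strain sequence of CAST was not used.

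**Figure D4:**
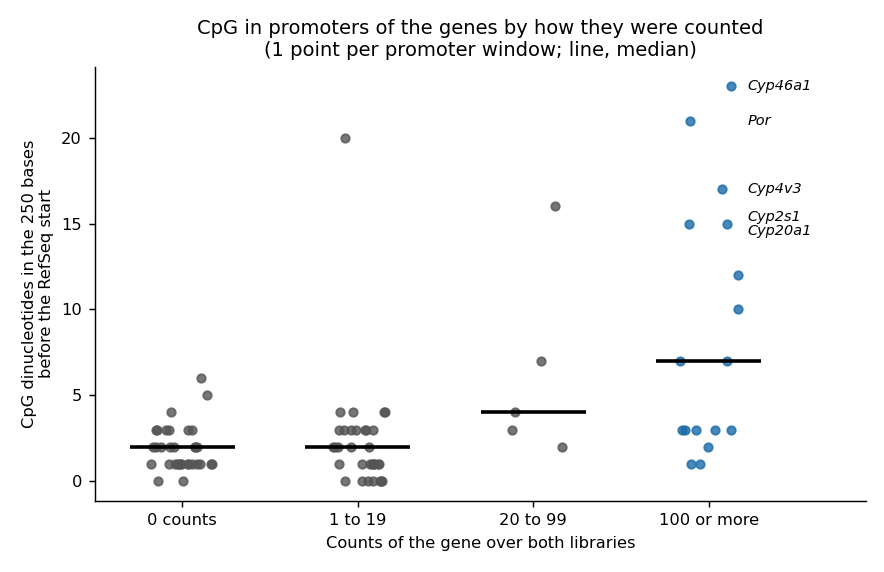
Number of CpG in the 250 bases before the RefSeq start, with 1 point per promoter window, for members grouped by their counts over both libraries; lines are medians. Members with 100 or more counts have a median of 7 and reach 23 (Cyp46a1), and those with 0 counts a median of 2 and a highest value of 6.

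The stretches below are shown because they range from CpG-rich to CpG-free among the genes described above. Each is 120 bases, 5′ to 3′ on the gene's strand in the reference sequence, taken before the annotated exons nearest the start. Capitals mark CpG and TATAAA. Por and the 3 P450 members highest in both libraries come first. Cyp46a1, whose window had the most CpG of the members, is next, before Cyp4f39 and Cyp4f16 of the Cyp4f group. Then come the genes with large ratios, and last the liver genes Cyp2c29 and Cyp2a12, which had 0 counts in both libraries.
Por (chr5:135688916-135689035, plus strand): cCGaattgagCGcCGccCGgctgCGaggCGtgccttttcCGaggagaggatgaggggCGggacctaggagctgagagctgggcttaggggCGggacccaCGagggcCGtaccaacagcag
Cyp20a1 (chr1:60343180-60343299, plus strand): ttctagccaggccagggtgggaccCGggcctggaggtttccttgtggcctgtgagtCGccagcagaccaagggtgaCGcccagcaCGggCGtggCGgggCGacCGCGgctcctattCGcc
Cyp4v3 (chr8:45333217-45333336, minus strand): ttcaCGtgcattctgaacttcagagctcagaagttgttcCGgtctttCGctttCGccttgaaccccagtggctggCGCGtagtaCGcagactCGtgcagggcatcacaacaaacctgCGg
Cyp4f13 (chr17:32947403-32947522, minus strand): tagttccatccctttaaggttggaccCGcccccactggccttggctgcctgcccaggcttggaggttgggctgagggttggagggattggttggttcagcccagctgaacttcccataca
Cyp46a1 (chr12:108334196-108334315, plus strand): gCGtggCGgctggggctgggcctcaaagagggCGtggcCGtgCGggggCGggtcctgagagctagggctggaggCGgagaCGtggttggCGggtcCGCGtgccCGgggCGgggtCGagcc
Cyp4f39 (chr17:32452603-32452722, plus strand): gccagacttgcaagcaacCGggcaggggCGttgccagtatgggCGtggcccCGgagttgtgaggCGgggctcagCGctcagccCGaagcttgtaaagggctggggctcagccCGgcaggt
Cyp4f16 (chr17:32536437-32536556, plus strand): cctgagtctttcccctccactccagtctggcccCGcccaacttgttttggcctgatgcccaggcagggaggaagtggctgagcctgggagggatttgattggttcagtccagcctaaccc
Cyp2j6 (chr4:96553662-96553781, minus strand): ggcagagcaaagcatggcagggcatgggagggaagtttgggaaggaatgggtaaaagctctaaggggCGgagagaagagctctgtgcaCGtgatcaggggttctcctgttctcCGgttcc
Cyp3a13 (chr5:137921620-137921739, minus strand): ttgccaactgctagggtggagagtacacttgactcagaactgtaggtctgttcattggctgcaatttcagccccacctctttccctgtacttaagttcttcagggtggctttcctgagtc
Cyp26b1 (chr6:84593909-84594028, minus strand): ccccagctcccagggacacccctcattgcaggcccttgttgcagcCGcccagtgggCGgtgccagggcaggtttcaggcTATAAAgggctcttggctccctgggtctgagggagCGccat
Cyp2c29 (chr19:39286954-39287073, plus strand): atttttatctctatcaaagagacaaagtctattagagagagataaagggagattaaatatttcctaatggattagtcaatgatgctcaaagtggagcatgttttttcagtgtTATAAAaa
Cyp2a12 (chr7:27028961-27029080, plus strand): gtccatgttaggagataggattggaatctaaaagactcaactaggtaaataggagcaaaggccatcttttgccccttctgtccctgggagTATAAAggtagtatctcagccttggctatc

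In these stretches Por had 11 CpG, Cyp20a1 10 and Cyp4v3 9, but Cyp4f13, of like abundance, had 1. Cyp46a1, at 1.79 and 1.36 TPM, had 14. Cyp4f39 and Cyp4f16, which have Cyp4f17 between them and were both higher in B6, had 8 and 1. All stretches are reference sequence, and a link of their CpG to the strain ratios was not tested. Cyp2j6 had 3 and Cyp26b1 3, the latter beside a TATA box, and Cyp3a13 had none. Cyp2c29 and Cyp2a12 had a TATA box and no CpG.

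The share of the leading transcript differed between the libraries in several members. Of the 23 members, 12 are listed with 1 transcript each. Among the 10 that have several and reach 100 counts in B6 and in CAST separately, the leading transcript was shared by the libraries for 9. Its share of the gene's TPM was 59.0% in B6 and 78.7% in CAST for Cyp4f13, 40.1% and 53.0% for Cyp4f16, and 88.7% and 79.7% for Cyp2s1. For Por the leading coding transcript held 91.9% of its TPM in B6 and 90.7% in CAST. Cyp27b1 was the exception: a transcript annotated as a target of nonsense-mediated decay held 52.2% in B6 and 41.2% in CAST, and its coding transcript 41.6% and 58.8%. These shares rest on 117 and 114 counts. Counted on the coding transcript alone the log2 ratio was 0.10 in place of -0.33.

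The coding share of 3 abundant members, singled out after their values were seen, was higher in CAST. Coding transcripts made up 87.6% of Cyp20a1 in B6 and 98.2% in CAST, 67.7% and 82.7% of Cyp4f13, and 57.6% and 68.4% of Cyp4f16. Transcripts annotated with a retained intron went the other way, with 9.35% and 1.80% for Cyp20a1, 25.6% and 10.4% for Cyp4f13, and 24.9% and 16.7% for Cyp4f16. For Por they were 5.13% and 6.87%. The share of such transcripts was at least 5 percentage points lower in CAST in 4 of the 6 members that had any, against 24.7% of 4447 genes, and it was lower in CAST by any amount in 4 of the 6, against 78.7%. The 4447 genes are those with any retained-intron transcript read and 100 or more counts in each library. On their main coding transcript alone the log2 ratios were -0.63 for Cyp20a1, 0.56 for Cyp4f13 and -0.55 for Cyp4f16.

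**Figure D5:**
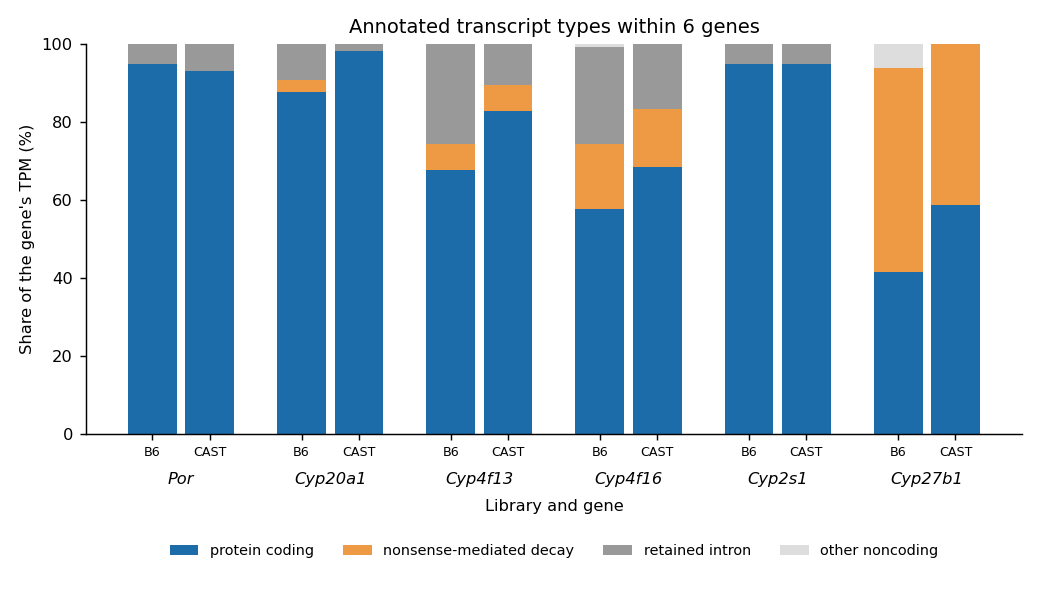
Share of each gene's TPM (%) by annotated transcript type, in B6 and CAST (1 library each), for 6 members with several transcripts. The coding share of Cyp4f13 is 67.7% in B6 and 82.7% in CAST, and that of Por is above 90% in both.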

How the data were processed

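Pooled islets of B6 and CAST mice gave 1 library each. Per the submitters' processing notes, the authors used RSEM on GRCm38. Each deposited file gives per transcript an expected count and a fraction of all transcripts, which sums to 1; the fraction times 1000000 is TPM. For the aligner, tool versions and strand setting nothing is stated in the sources used here, and reads of CAST carry strain variants against the reference. Transcript values were added up for each gene, and expected counts then rounded. Of 38924 gene IDs 37607 matched GENCODE M21 (GRCm38). TMM factors came from edgeR 4.0.16 (R 4.3.3) over all genes (1.056 for B6 and 0.947 for CAST), with DESeq2 1.42.0 size factors, total counts and TPM as alternatives. Ratios used 0.5 added to scaled counts, and intervals the exact Clopper-Pearson method. Near-identical copies were found with minimap2 2.31 (95% identity over 200 bases and 50% of the shorter transcript). The computation was tested on simulated data. Members, roles and lists were chosen with earlier results of these data known. Members with 100 or more counts are named, as are those with 20 to 99 that have at most 3 counts in a library or differ over 2-fold (Cyp3a11, Cyp2r1 and Cyp4x1os); others were named after their values were seen. Intervals used scipy 1.17.1 in Python 3.11.15 and figures matplotlib 3.10.9.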

Additional observations from a re-analysis of the deposited data

How the results depend on the processing

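The 5 members at least 2-fold higher in CAST and the 2 higher in B6 were counted alike with DESeq2 size factors, total counts, near-identical copies summed and protein coding members only. With TPM and 1 added they were 0 and 4, and with TPM and nothing added, an alternative chosen after seeing the data, 5 and 4, with a median of -0.40 where the median of all genes was -0.33. With 500 counts required 3 members were at least 2-fold higher in CAST, since fewer were included (17). With no count filter they were 23 and 10 of 61, with a median of 0.32, and at 20 counts 7 and 3 of 30. The 61 include 31 members with 1 to 17 counts, whose ratios rest on few reads. By 10 or more counts 28 members were detected in B6 and 33 in CAST, against 16 and 15 by TPM. For these other count filters, and for detection by 10 counts, the shares over all genes were not computed, so the numbers have no background. None of the 7 genes that were 2-fold apart changed direction under these settings or on its main coding transcript alone. Total counts moved the share of all 2-fold genes that were higher in CAST from 54.5% to 44.2%, TPM with 1 added to 38.6% and TPM with nothing added to 29.6%. Genes under about 100 counts, and the division of reads between transcripts, are the least precise values here. No paired analysis was possible because each strain has 1 library and no result comes from a test.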

Other observations

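Some members share exon sequence with another annotated gene, and without a stated strand setting their reads cannot be told apart. Cyp4x1os, the antisense gene beside Cyp4x1, was read with 6 (B6) and 21 (CAST) counts (log2 1.45, 0.16 to 3.12) and shares 450 bases with Cyp4x1, which had 343 and 371. Cyp4f18 shares 181 of its 1855 exon bases with Zfp961 on the opposite strand, which had 1150 and 1374 counts, more than the 85 and 142 of Cyp4f18. Cyp2u1 shares 548 bases with 4930534D22Rik, which had 28 and 9 counts, fewer than the 300 and 940 of Cyp2u1.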
